A study of Sus scrofa with 6 samples.

Results

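The genes described here handle glucose on its way into and out of muscle glycogen: UGP2, PYGM, PRKAG3 and SLC2A4. They were taken as every probe set whose platform gene symbol is exactly 1 of those 4 names, which gave 10 of the 23999 non-control probe sets of the array and 4 of its 6765 named genes: 2 for UGP2, 4 for PYGM, 1 for PRKAG3 and 3 for SLC2A4. All 4 symbols were the same in the RefSeq gene table. RNA came from the loin muscle longissimus dorsi of 6 boars slaughtered at 150 days of age, 3 of the Large White breed, the control, and 3 of the Northeastern Indigenous breed. Both breeds had the same feeding and housing per the labels, no treatment or altered allele is named for either, and each animal gave 1 Affymetrix Porcine Genome Array, with the samples labelled as biological replicates.

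Skeletal muscle takes up glucose through the transporter encoded by SLC2A4 (GLUT4), which insulin and contraction bring to the cell surface. Inside the fibre, glucose is phosphorylated and turned into UDP-glucose by the enzyme that UGP2 encodes, and glycogen synthase adds UDP-glucose to the growing glycogen chain. Muscle glycogen phosphorylase, encoded by PYGM, releases the stored glucose units again. PRKAG3 encodes the muscle-enriched gamma 3 regulatory subunit of AMP-activated protein kinase, the energy sensor of the cell, and is known in pigs for an allele of the Hampshire breed that raises muscle glycogen and lowers the ultimate pH of pork. No genotype was measured here.

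Values are log2 intensities after quantile normalization unless stated otherwise, differences are Northeastern Indigenous minus Large White, and an array gives brightness and not read depth, so the number of arrays limits the precision. Large White replicates 1 and 3 stood apart from the other 4 arrays in markers of adipocytes, leukocytes and matrix, but not of endothelium or blood cells. In muscle markers replicate 1 stood far apart and replicate 3 only a little. On replicate 3 the fast and slow fibre medians lay at -0.17 and -0.34 from the Northeastern Indigenous mean. The slow fibre median of Northeastern Indigenous replicate 1 was -0.24. The 11 tested of 15 sarcomere markers, which define muscle fibres, lay at medians of -3.58, -0.01 and -0.41 log2 units from the Northeastern Indigenous mean on Large White replicates 1, 2 and 3. CKM, the muscle creatine kinase, read 12.78, 15.26 and 15.16 on these arrays, against 15.22 ± 0.01 (SD, n = 3) for the other breed. Other markers of the list fell further on Large White replicate 1. DES read 7.26, 13.23 and 11.59 against 13.21 ± 0.38, and ACTN2 8.30, 13.51 and 12.60 against 13.82 ± 0.23 (SD, n = 3). CKM was thus bright on every array, but not every sarcomere marker was. The 7 tested of 11 adipocyte markers lay at medians of 3.70, 0.01 and 2.42 on Large White replicates 1, 2 and 3. Their summed normalized intensity ran from 24341 to 55999 over the Large White arrays and from 20515 to 27361 over the others. GPD1, the brightest of the 7 on the Northeastern Indigenous arrays, weighs on that sum and was the 1 marker with a positive difference. It read 11.70, 13.81 and 13.35 against 13.80 ± 0.06 (SD, n = 3). The other 6 were lower in that breed, and ADIPOQ read 13.64, 7.22 and 12.50 against 7.38 ± 0.81. The 10 tested of 14 leukocyte markers lay at 2.31, 0.75 and 2.27 and the 7 tested of 10 fibroblast and matrix markers at 2.07, 0.56 and 1.55. Endothelium medians were -0.32, -0.02 and -0.22, beside -0.30 on Northeastern Indigenous replicate 3. Blood cell medians were 0.15, -0.20 and 0.80, beside 1.54 on Northeastern Indigenous replicate 2. In bulk muscle, fewer cells of a type and less RNA per cell cannot be told apart. Results are therefore given with all arrays and without Large White replicates 1 and 3, where Large White replicate 2 stands alone and is assumed to vary like the other breed's arrays.

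The contrast between the breeds was fitted with limma to the probe sets left after the dimmest 40 percent, by mean log2 intensity, were dropped. Of the 10 probe sets 9 passed this filter and were tested, and the dimmest SLC2A4 probe set was not. At a Benjamini-Hochberg adjusted p under 0.05, limma called 0 of the 9, as it did 0 of all 14399 probe sets tested (0%). At an unadjusted p under 0.05 there were 2 of the 9, both of UGP2, against 18.8% of all probe sets. The breeds did not overlap in the same 2, against 25.1% of all probe sets, and 14.2% when counted only where Northeastern Indigenous boars were higher. These shares among the members are near the background, so the counts say nothing particular about the group, and the genes are described one by one below.

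UGP2 was brighter on all 3 Northeastern Indigenous arrays than on any Large White array, with both of its probe sets, though neither passed the adjusted threshold. The gene was chosen with this difference already known from the same arrays. The brighter probe set read 12.47, 13.39 and 12.78 on Large White replicates 1, 2 and 3. It read 14.29, 14.06 and 14.52 on Northeastern Indigenous replicates 1, 2 and 3. The lowest Northeastern Indigenous array lay 0.66 above the highest Large White array. The breed means were 12.88 ± 0.47 and 14.29 ± 0.23 (SD, n = 3 each), a 2.66-fold difference.

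On the log2 scale the UGP2 difference was 1.41 ± 0.27 (SE; 95% confidence interval 0.78 to 2.04; limma adjusted p = 0.224). An exact two-sided permutation test of the same values gave p = 0.1, the smallest p that 3 against 3 arrays allow. The second probe set read 10.14, 11.22 and 10.75 in Large White and 12.42, 12.29 and 13.04 in Northeastern Indigenous boars. Its difference was 1.88 ± 0.35 (SE; limma adjusted p = 0.224), or 3.68-fold. Both probe sets put the 6 arrays in the same order, from Large White replicate 1, the dimmest, through Large White replicates 3 and 2 to Northeastern Indigenous replicates 2, 1 and 3. Centred on their own means, the profiles of the 2 probe sets differed by 0.23 log2 units on average over the 6 arrays.

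The UGP2 gap was present on Large White replicate 2, the array whose sarcomere and adipocyte medians lay at -0.01 and 0.01 from the Northeastern Indigenous mean and whose leukocyte and matrix medians lay at 0.75 and 0.56. The part of those markers was not tested. On that array UGP2 lay at -0.90 from the mean of the other breed, against -1.82 on replicate 1 and -1.51 on replicate 3. The second probe set lay at -1.36, -2.45 and -1.83 on replicates 2, 1 and 3. Large White replicate 2 lay below all 3 Northeastern Indigenous arrays in 30.9% of the 5438 named genes tested, and 4.91% of them had that array at least as far under the Northeastern Indigenous mean as UGP2. Without Large White replicates 1 and 3 the UGP2 difference was 0.96 ± 0.19 (SE; limma adjusted p = 0.192). With the adipocyte mean minus the sarcomere mean of each array as a covariate it was 0.95 ± 0.18 (SE; limma adjusted p = 0.221). Without Large White replicate 2, which sets only replicates 1 and 3 against the other breed, the difference was 1.62 ± 0.19 (SE) and passed (limma adjusted p = 0.0054), where 4425 probe sets passed in all.

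**Figure D1:**
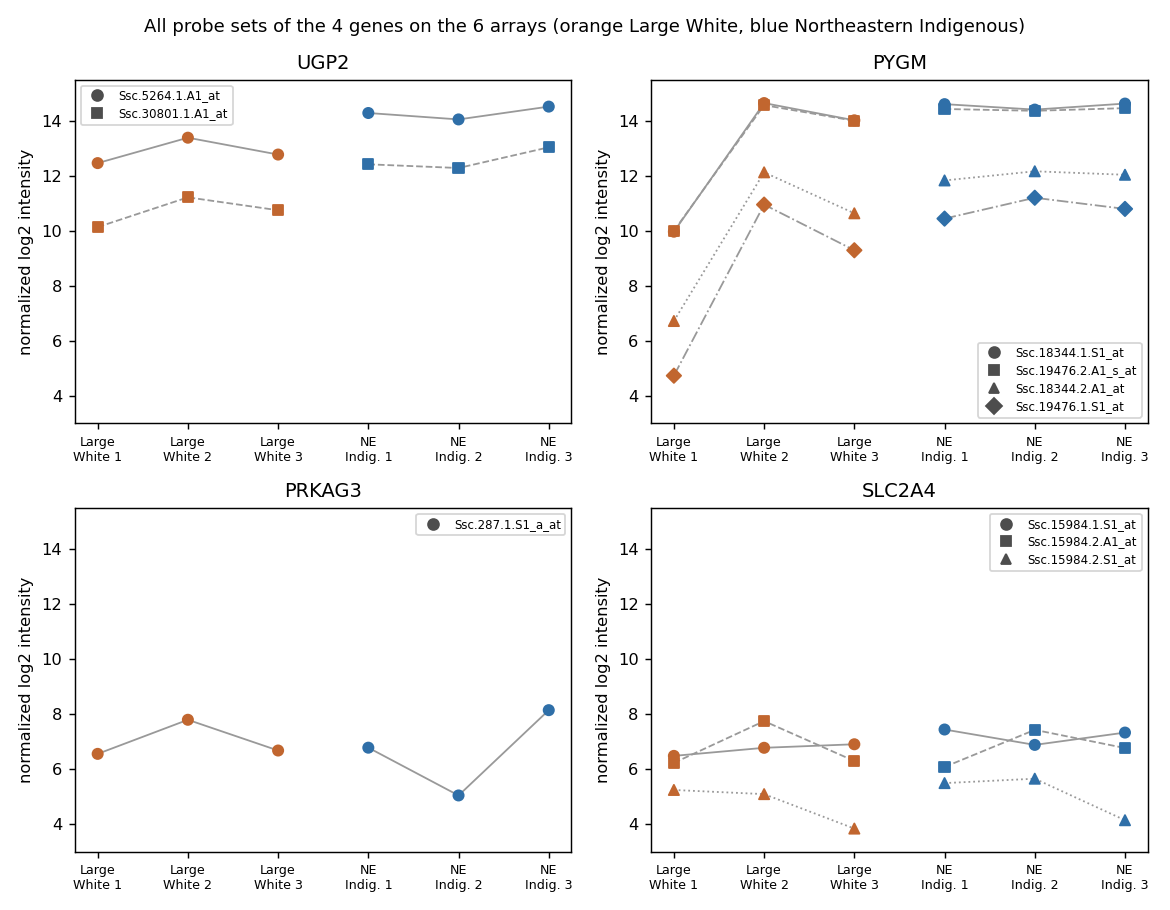
Normalized log2 intensity (vertical axis) of the 10 probe sets of UGP2, PYGM, PRKAG3 and SLC2A4 on the 3 Large White (orange) and 3 Northeastern Indigenous (blue) arrays (horizontal axis), 1 point per array and 1 marker shape per probe set. Both UGP2 probe sets are higher on every blue point than on any orange point, PYGM is low on Large White replicate 1, and PRKAG3 and SLC2A4 overlap between breeds.

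PYGM was among the brightest genes of the muscle on 5 arrays and much lower on Large White replicate 1, and the breeds overlapped. Its brightest probe set read 9.97, 14.65 and 14.02 on Large White replicates 1, 2 and 3. On the Northeastern Indigenous arrays it read 14.61, 14.41 and 14.63. Large White replicate 2 was thus the highest of all 6 arrays and replicate 1 the lowest. The Large White mean was 12.88 ± 2.54 and the Northeastern Indigenous mean 14.55 ± 0.12 (SD, n = 3 each), and the Large White range of 4.68 log2 units stood against 0.22 in the other breed.

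The PYGM difference of 1.67 ± 1.11 (SE; 95% confidence interval -0.94 to 4.28; limma adjusted p = 0.394) did not exceed the spread between arrays. Without Large White replicate 1 it was 0.22 ± 0.19 (SE), and without replicates 1 and 3 it turned to -0.10 ± 0.12 (SE; limma adjusted p = 0.804). With the adipocyte minus sarcomere covariate, which is built in part from muscle genes, it was -0.67 ± 0.51 (SE; limma adjusted p = 0.685). PYGM lay at -4.58, 0.10 and -0.53 from the Northeastern Indigenous mean on Large White replicates 1, 2 and 3. On the same arrays the sarcomere medians were -3.58, -0.01 and -0.41. The fast fibre medians were -2.51, 0.03 and -0.17 and the slow fibre medians -4.42, -0.16 and -0.34. The part of these markers in the PYGM values was not tested.

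The other 3 PYGM probe sets also had their lowest value on Large White replicate 1 and their second lowest on replicate 3. The second brightest followed the brightest probe set within 0.11 log2 units on every array after centring, with a difference of 1.56 ± 1.09 (SE). The third read 6.72, 12.13 and 10.64 in Large White and 11.84, 12.17 and 12.04 in Northeastern Indigenous boars, a difference of 2.18 ± 1.23 (SE). The dimmest read 4.74, 10.96 and 9.30 against 10.45, 11.21 and 10.80, a difference of 2.49 ± 1.42 (SE). The limma adjusted p of these 3 lay between 0.338 and 0.411. The 4.74 of the dimmest probe set on Large White replicate 1 is under the filter value of 5.85 for mean intensity, so the size of that gap depends on the scale near background, and with an offset of 50 its difference was 1.97. Without Large White replicate 2 the 2 dimmer probe sets passed limma's threshold, at 3.32 and 3.81, where 4425 probe sets passed in all. That setting sets only Large White replicates 1 and 3 against the other breed.

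**Figure D2:**
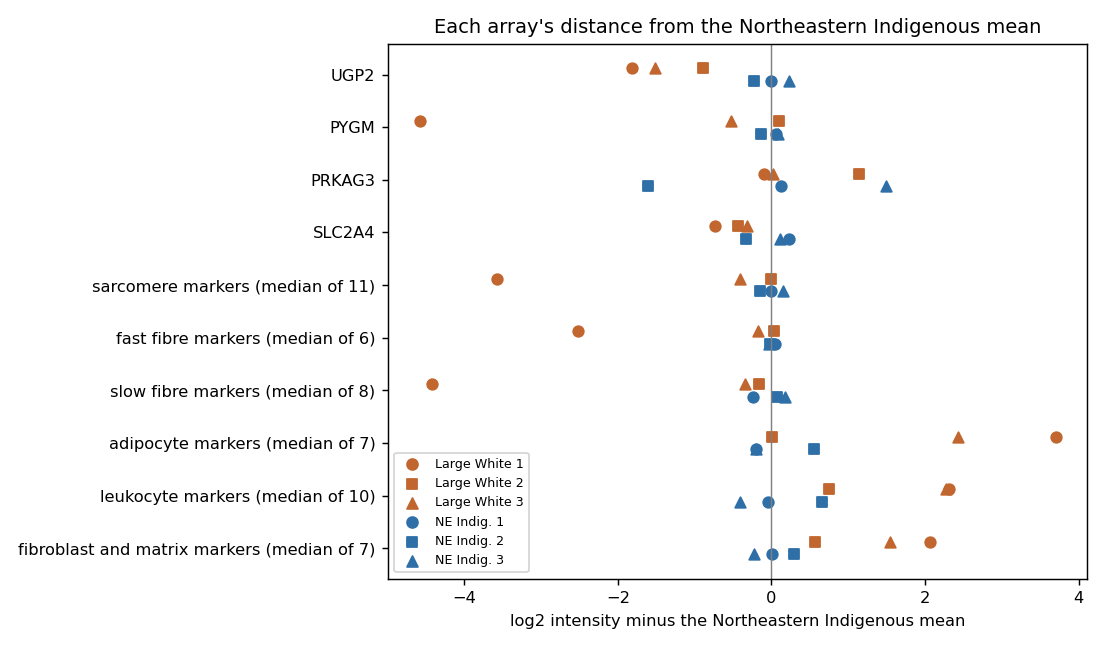
Distance of each array from the Northeastern Indigenous mean in log2 units (horizontal axis) for the brightest probe set of each of the 4 genes and for the median of each marker list (rows). Large White arrays are orange and Northeastern Indigenous arrays blue, with 1 marker shape per replicate number. PYGM lies at -4.58 on Large White replicate 1, where the sarcomere median is -3.58, and UGP2 lies at -0.90 on Large White replicate 2, where the sarcomere median is -0.01.

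PRKAG3 was of middling brightness and did not differ between the breeds beyond the spread of the arrays. Its single probe set read 6.56, 7.80 and 6.68 on Large White replicates 1, 2 and 3. On Northeastern Indigenous replicates 1, 2 and 3 it read 6.78, 5.05 and 8.15, so both the dimmest and the brightest of the 6 arrays were of that breed. The 5.05 is under the filter value of 5.85 for mean intensity, so the spread in that breed depends on the scale near background. The means were 7.01 ± 0.68 and 6.66 ± 1.55 (SD, n = 3 each). The difference was -0.35 ± 0.78 (SE; 95% confidence interval -2.19 to 1.48; limma adjusted p = 0.797), an interval that holds both a 4-fold lower and a 2-fold higher level. It was -1.11 without Northeastern Indigenous replicate 3 and turned to 0.46 without Northeastern Indigenous replicate 2 and to 0.04 without Large White replicate 2. Without Large White replicates 1 and 3 it was -1.10 ± 1.01 (SE), with the marker covariate -1.07 ± 0.90 and with an offset of 50 -0.14 ± 0.51. The array with the low sarcomere markers, Large White replicate 1, lay at -0.10 from the Northeastern Indigenous mean for PRKAG3 and replicate 3 at 0.02, unlike PYGM.

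SLC2A4 was also of middling to low brightness, and its 3 probe sets did not order the arrays alike. The brightest read 6.49, 6.78 and 6.91 in Large White and 7.45, 6.89 and 7.33 in Northeastern Indigenous boars. Northeastern Indigenous replicate 2 lay 0.02 below Large White replicate 3, and the other 2 Northeastern Indigenous arrays were above all Large White arrays. The difference was 0.50 ± 0.29 (SE; 95% confidence interval -0.19 to 1.18; limma adjusted p = 0.3504), or 1.41-fold. The breed SDs were 0.22 and 0.30 (n = 3 each), the breeds overlapped, and the difference did not pass the threshold. Leaving out 1 array gave differences between 0.37 and 0.67, and without Large White replicates 1 and 3 it was 0.43 ± 0.39 (SE; limma adjusted p = 0.742). With the marker covariate it was 0.31 ± 0.38 (SE; limma adjusted p = 0.816).

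The second SLC2A4 probe set read 6.23, 7.75 and 6.30 against 6.08, 7.43 and 6.77, with a difference of 0.00 ± 0.54 (SE; limma adjusted p = 0.999). Its highest array was Large White replicate 2 and its lowest Northeastern Indigenous replicate 1, which was the highest array of the first probe set. The third fell under the filter at the 29.3rd percentile and read 5.25, 5.10 and 3.84 against 5.50, 5.66 and 4.15. The centred profiles of the 3 probe sets differed by 0.65 to 0.73 log2 units on average, more than the difference of 0.50 between the breeds. With the mean of the 2 tested probe sets in place of the brightest, the SLC2A4 difference was 0.25 ± 0.33 (SE; limma adjusted p = 0.637). Fat cells express SLC2A4 as well as muscle fibres. The adipocyte medians stood at 3.70, 0.01 and 2.42 on Large White replicates 1, 2 and 3, where the first SLC2A4 probe set lay at -0.74, -0.44 and -0.31. The part of these cells in the SLC2A4 values was not tested.

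On the scale of the deposited intensities the brightest probe set of each gene had a difference of the same sign. In linear units as deposited, UGP2 read 4950, 12294 and 6201 in Large White and 22321, 20064 and 25485 in Northeastern Indigenous boars, again with no overlap. PYGM read 1095 on Large White replicate 1 against 34547 on replicate 2, and PRKAG3 ran from 35.6 to 266.6 and SLC2A4 from 101.5 to 155.8 over the 6 arrays. On the log2 of these values the differences were 1.64 for UGP2, 1.75 for PYGM, -0.46 for PRKAG3 and 0.34 for SLC2A4. Centring each array on its median moved the median difference of all named genes to 0.16, from 0.09 after quantile normalization, and UGP2 then differed by 1.78.

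**Figure D3:**
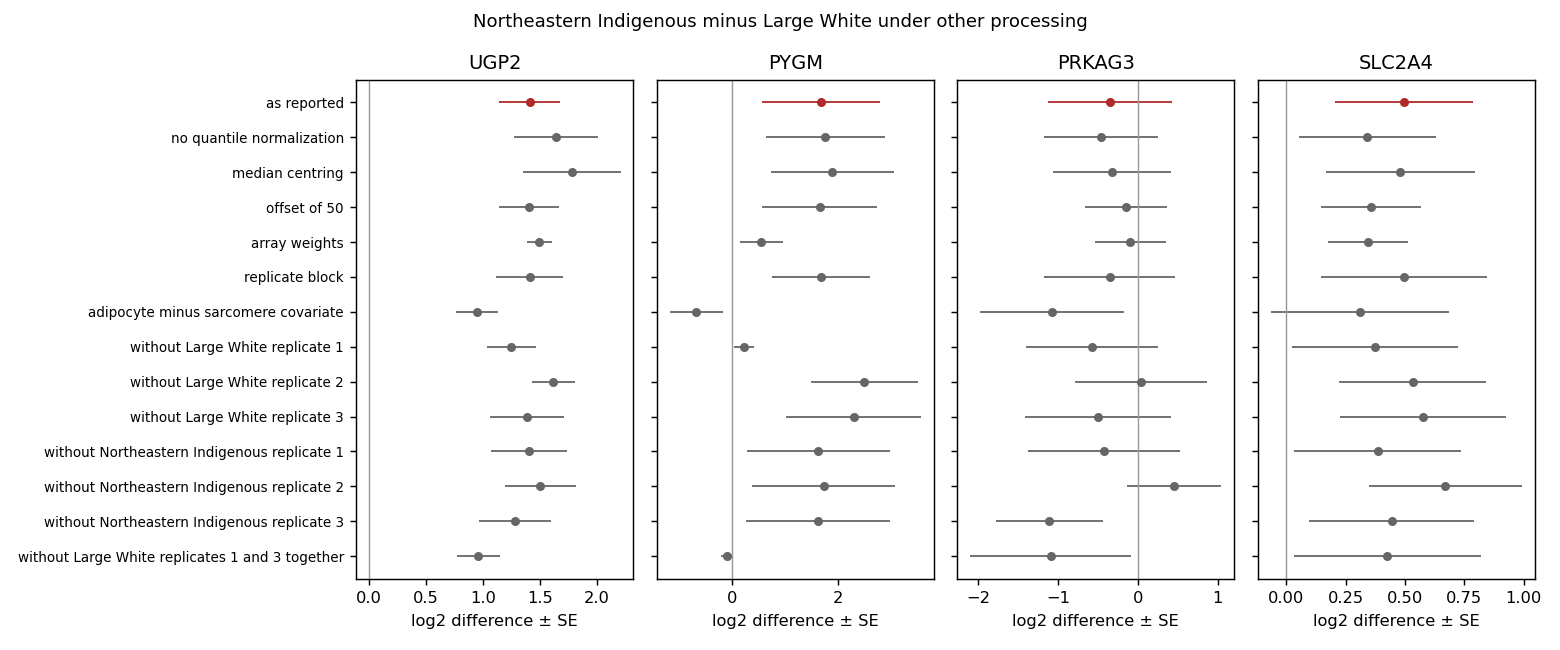
Difference between the breeds in log2 units ± SE (horizontal axis, Northeastern Indigenous minus Large White) for the brightest probe set of each gene under each processing alternative (rows), with the reported value in red. UGP2 runs from 0.95 to 1.78 and stays above 0 in every row drawn, PYGM turns to -0.67 with the covariate and -0.10 without Large White replicates 1 and 3, and PRKAG3 lies on both sides of 0.

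Around UGP2, the genes of glycogen synthesis had mostly positive differences, none of which passed. Of 18 genes in that list 9 had a tested probe set, 7 with a positive and 2 with a negative difference, and the median was 1.09 against 0.09 over all 5438 named genes, of which 54.7% were positive. Limma called 0 in either direction. The breeds did not overlap in 3 higher genes and 1 lower gene, where 15.9% and 12.3% of all named genes did not. GYS1, the muscle glycogen synthase, read 6.12, 9.39 and 8.12 in Large White and 10.16, 9.85 and 9.46 in Northeastern Indigenous boars. Its difference of 1.94 ± 0.76 (SE; limma adjusted p = 0.252) had no overlap between breeds, with a gap of under 0.1 between Large White replicate 2 and Northeastern Indigenous replicate 3. It was 1.08 without Large White replicate 1, 0.45 without replicates 1 and 3, and 0.32 with the covariate. It passed the threshold in 2 settings where many genes did. Without Large White replicate 2 it was at 2.71 (limma adjusted p = 0.0181), and 1857 named genes passed in all. With array weights, which favoured Large White replicate 3, it was at 1.78 (limma adjusted p = 0.000862), and 3289 named genes passed.

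PPP1CB, a catalytic subunit of the phosphatase that activates glycogen synthase, was the remaining higher gene without overlap and is named because of that. It read 11.30, 11.66 and 11.39 in Large White against 12.25, 12.10 and 12.22 in Northeastern Indigenous boars, and lay at -0.53 on Large White replicate 2. GYG1, the glycogenin that primes a new glycogen particle, differed by 1.17 ± 0.64 (SE), and PGM1, which makes the glucose 1-phosphate that UGP2 uses, by 1.09 ± 0.77. Both overlapped between breeds, and Large White replicate 1 was their lowest array, at 10.82 and 11.60. The lower gene without overlap was PPP1R3E, a glycogen-targeting subunit of the same phosphatase, at -1.34 ± 0.46 (SE; limma adjusted p = 0.232). PGM2, a relative of PGM1, differed by -1.05 ± 0.55 and was highest on Large White replicates 1 and 3, at 9.18 and 8.57. The median of the list was 0.37 without Large White replicate 1, 0.06 without replicates 1 and 3 and -0.11 with the covariate.

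Around PYGM, the 7 tested of 13 glycogen breakdown genes had 4 positive and 3 negative differences with a median of 0.15, and limma called 0. That median was -0.035 without Large White replicate 1, -0.10 with the covariate and 0.47 under the 60th percentile filter. PHKB, a regulatory subunit of the phosphorylase kinase that switches PYGM on, differed by 1.35 ± 0.71 (SE) with no overlap between breeds. It was low on Large White replicate 1, at 10.15 against 13.08 on replicate 2. PYGL, the liver form of glycogen phosphorylase, had the opposite sign to PYGM, at -0.96 ± 0.49 (SE). It read 10.71, 8.78 and 9.67 on Large White replicates 1, 2 and 3 and 8.76 ± 0.25 (SD, n = 3) in Northeastern Indigenous boars. PYGL was thus highest on Large White replicates 1 and 3. Adipocyte medians stood at 3.70 and 2.42 there, leukocyte medians at 2.31 and 2.27, and matrix medians at 2.07 and 1.55. The part of these cells in the PYGL values was not tested. PHKA2, another subunit of the kinase, differed by -0.86 ± 0.57 (SE), with its lowest value, 4.75, on Northeastern Indigenous replicate 1.

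The subunits of AMP-activated protein kinase did not share 1 pattern. Of 14 genes in the kinase list 9 were tested, 5 with a positive and 4 with a negative difference, a median of 0.48 and 0 called. The median was 0.13 without Large White replicate 1 and -0.24 with the covariate. PRKAA2, the catalytic alpha 2 subunit of muscle, read 7.84, 12.63 and 11.73 in Large White and 12.86 ± 0.27 (SD, n = 3) in Northeastern Indigenous boars, a difference of 2.12 ± 1.12 (SE). PRKAB2, the beta 2 subunit, read 6.51, 10.01 and 8.43 and differed by 1.30 ± 0.80. Both were lowest on Large White replicate 1, as PYGM was and PRKAG3 was not. Among the gamma subunits, PRKAG1 differed by 0.59 ± 0.27 with no overlap between breeds, PRKAG2 by -0.13 ± 0.34 and PRKAG3 by -0.35 ± 0.78 (SE), and limma's adjusted p was 0.279, 0.827 and 0.797. PRKAB1, the other beta subunit, differed by -0.36 ± 0.42.

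Around SLC2A4, the 20 tested of 27 genes of glucose uptake had 12 positive and 8 negative differences, a median of 0.04 and 0 called, and the median was -0.14 without Large White replicates 1 and 3 and -0.19 with the covariate. The most positive were MEF2D, at 1.01 ± 0.63 (SE), and MEF2A, at 0.92 ± 0.44, both transcription factors known to bind the SLC2A4 promoter. MEF2A read 9.03, 10.76 and 10.04 in Large White and 10.96, 10.84 and 10.81 in Northeastern Indigenous boars, a gap of under 0.1 between the breeds. The most negative were the hexokinases HK1, at -1.83 ± 0.75, and HK3, at -1.48 ± 0.75, which phosphorylate glucose on entry. HK3 averaged 5.38 in Northeastern Indigenous boars, under the filter value of 5.85, so the size of its difference depends on the scale near background. HK1 read 11.14, 7.88 and 9.94 on Large White replicates 1, 2 and 3 and 7.83 ± 0.17 (SD, n = 3) in Northeastern Indigenous boars, so that Large White replicate 2 was at the level of the other breed.

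SLC2A1, the widely expressed transporter GLUT1, read 6.93 to 7.96 in Large White and 6.52, 6.13 and 5.95 in Northeastern Indigenous boars. Its difference of -1.10 ± 0.38 (SE; limma adjusted p = 0.232) had no overlap between breeds and was opposite in sign to that of the first SLC2A4 probe set. On Large White replicate 2, SLC2A1 stood 0.80 above the Northeastern Indigenous mean. TBC1D1, a Rab regulator that acts downstream of AMP-activated protein kinase on transporter movement, differed by 0.35 ± 0.43 (SE).

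**Figure D4:**
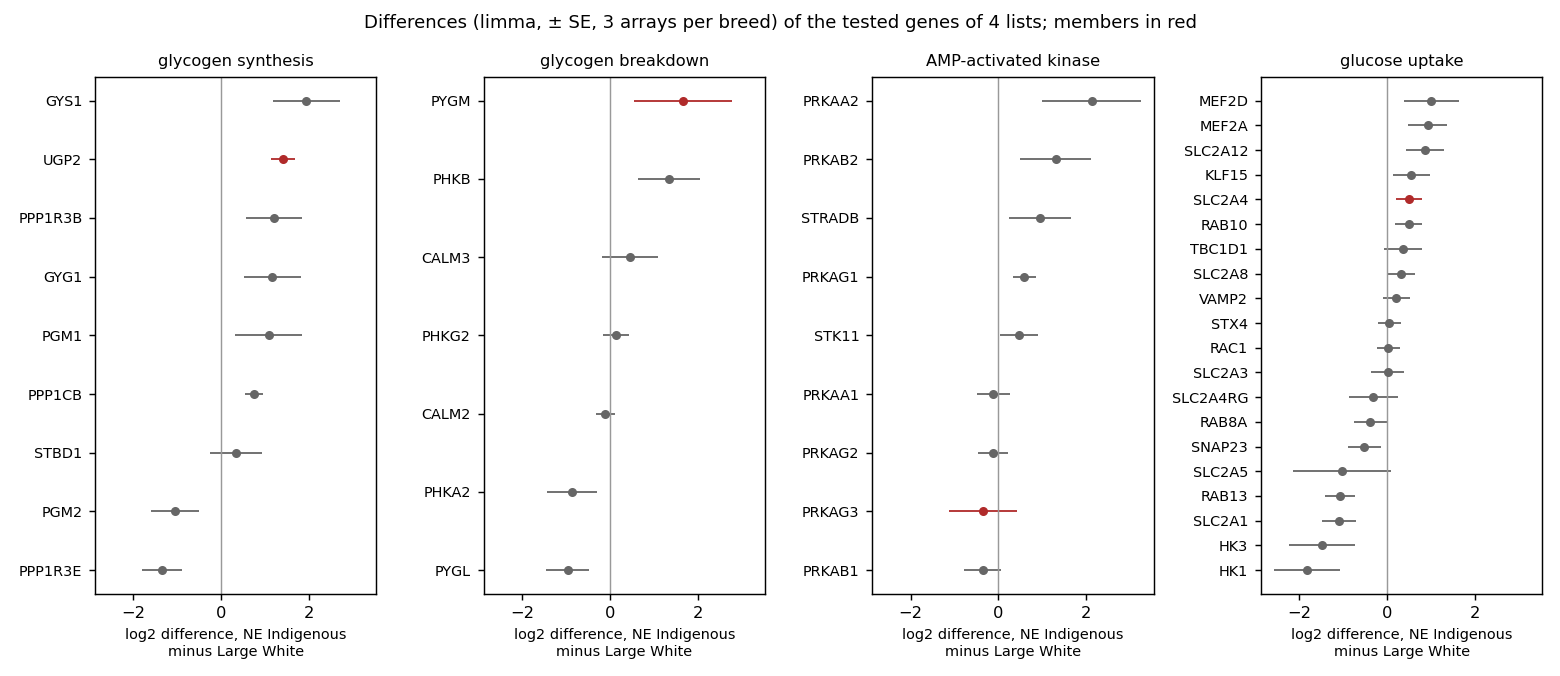
Difference between the breeds in log2 units ± SE (horizontal axis, limma, 3 arrays per breed) for every tested gene of the glycogen synthesis, glycogen breakdown, AMP-activated kinase and glucose uptake lists (rows), with UGP2, PYGM, PRKAG3 and SLC2A4 in red. UGP2 at 1.41 has a smaller SE than GYS1 at 1.94, and the glucose uptake genes lie on both sides of 0 with a median of 0.04.

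Insulin signalling and glycolysis genes gave a similar mixture. The 6 tested of 17 insulin signalling genes had a median of 0.27 (0.026 without Large White replicates 1 and 3) and 0 called, with AKT2 at -0.12 ± 0.34 and INSR, the insulin receptor, at 0.33 ± 0.33 (SE). AKT1 differed by 0.34 ± 0.31, PTPN1, a phosphatase of the receptor, by -0.27 ± 0.26, and GRB10, an adaptor that restrains the receptor, by 1.41 ± 0.73. The 15 tested of 20 glycolysis genes had a median of 0.29 and 0 called, and that median turned to -0.019 without Large White replicate 1, -0.11 without replicates 1 and 3 and -0.37 with the covariate. The muscle isoforms PFKM, at 1.65 ± 0.99, and PGAM2, at 1.28 ± 0.95, were low on Large White replicate 1, at 10.32 and 11.22, and LDHA, the lactate dehydrogenase of fast muscle, differed by 0.29 ± 0.22. The isoforms ALDOC, at -2.33 ± 0.97, and ENO1, at -1.43 ± 0.37, were highest on that array. On Large White replicate 2, ALDOC lay at -0.04 and ENO1 at 0.98 from the Northeastern Indigenous mean. The breeds did not overlap in 1 higher glycolysis gene, PFKM, and 2 lower ones, ENO1 and PFKP, the last at -1.24 ± 0.27. PFKM was separated narrowly, with 14.43 on Large White replicate 2 and 14.47 on Northeastern Indigenous replicate 2. PFKP was highest on Large White replicate 2, at 8.36, which lay 1.60 above the Northeastern Indigenous mean. Among all named genes 15.9% were higher without overlap and 12.3% lower.

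The genes whose profiles over the 6 arrays were most like each member were found by the mean absolute gap between profiles centred on their own means. For UGP2 they were OXSM, KDM5C, PSME3, NDUFS7 and CEACAM16, with gaps of 0.10 to 0.13 log2 units. OXSM read 9.34, 10.04 and 9.46 in Large White and 10.72, 10.75 and 11.28 in Northeastern Indigenous boars. For PYGM they were AMPD1, TCAP, PFKM, COX8H and PDLIM5, with gaps of 0.09 to 0.13, and AMPD1, the muscle AMP deaminase, read 9.74, 14.17 and 13.81 against 14.17, 14.04 and 14.20. For the first SLC2A4 probe set they were KIAA1109, SNRPA, MRPL32, RPAP3 and HERC1, with gaps of 0.04 to 0.08. For PRKAG3 they were NR5A1, KANK3, HUS1, SHMT1 and ACP2, with gaps of 0.29 to 0.44, so that no other named gene followed PRKAG3 as closely as the nearest genes of the other 3 members followed them. The gap is larger for a gene that varies more, and 6 arrays shared by all genes give many close profiles.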

How the data were processed

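Each array came as a column of linear intensities, 1 for every probe set, as the authors deposited them. The sources used here do not give the software or settings behind them. Averaged after trimming 2% at either end, every array came to between 499.8 and 499.9, so some scaling preceded deposit. The table held 24123 probe sets, and 124 Affymetrix controls were left out. Symbols came from the platform annotation (10069 probe sets with 1 symbol, 198 with several, 13732 with none listed), and probe sets with several symbols were left unnamed.

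Intensities were taken as log2 and quantile normalized, since the array medians spanned 0.35 log2 units, and probe sets under the 40th percentile of mean intensity (5.85) were dropped. Limma 3.58.1 under R 4.3.3 gave the contrast (lmFit, then eBayes allowing for an intensity trend). Its tests are two-sided, with 4 residual degrees of freedom before eBayes adds those of its variance prior, and p-values were adjusted over all 14399 probe sets. The SD of a probe set had a median of 0.49 over the Large White arrays and 0.27 over the Northeastern Indigenous arrays. The brightest probe set stood for a gene in lists. The fit was tested on simulated data.

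The members and gene lists were chosen with earlier results of these data known. From each list the 2 largest differences in each direction and a fixed set of genes were named, and lists are described by counts and medians with no set test. Alternatives were other scalings, filters, an offset, variance priors, array weights, a block on replicate number, the mean of a gene's probe sets, a marker covariate and arrays left out.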

Additional observations from a re-analysis of the deposited data

How the results depend on the processing

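UGP2 kept a positive difference under all 18 alternatives run and PYGM under 16 of 18. UGP2 passed limma's threshold with array weights (1.50, adjusted p = 0.00016), which were estimated without convergence and favoured Large White replicate 3 at 42.0, and when Large White replicate 2 was left out (adjusted p = 0.0054). Elsewhere its adjusted p ran up to 0.54. Leaving out 1 array gave UGP2 differences of 1.25 to 1.62, PYGM 0.22 to 2.49, PRKAG3 -1.11 to 0.46 and SLC2A4 0.37 to 0.67. PYGM reversed with the covariate (-0.67) and without Large White replicates 1 and 3 (-0.10), and its other probe sets did so at -0.72, -0.47 and -0.54 with the covariate and -0.15, -0.12 and -0.14 without the 2 arrays. With array weights the 2 dimmer PYGM probe sets passed, at 1.36 and 1.48, where 8499 probe sets passed in all. The second SLC2A4 probe set was at -0.11 as deposited, -0.011 with the offset of 50, -0.63 with the covariate, -0.96 without Large White replicates 1 and 3, and -0.34 to 0.50 leaving out 1 array. PRKAG3 and SLC2A4 fell under the 60th percentile filter and have no value there.

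The count of 0 probe sets and 0 genes became 1 and 1 with median centring and with the covariate, 1 gene with the mean of a gene's probe sets, 8499 and 3289 with array weights, 2706 and 1130 at an unadjusted p under 0.05, and from 0 to 4425 probe sets and from 0 to 1857 genes leaving out 1 array. The highest came without Large White replicate 2. Deviations of same-numbered arrays from their breed means correlated at -0.02, -0.16 and -0.11. These values gave no sign that the replicate numbers pair the boars, but a small shared effect could be missed. With the replicate number as a block limma called 0, and UGP2 had an adjusted p of 0.336.

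Among the other named genes the covariate turned the sign of GYG1 (-0.20), PGM1 (-0.48), PRKAA2 (-0.24), PRKAB2 (-0.44), PRKAG2 (0.25), TBC1D1 (-0.26), AKT2 (0.13), PFKM (-0.41), LDHA (-0.10), PHKB (-0.10), PRKAB1 (0.32), MEF2D (-0.32), GRB10 (-0.037), PGAM2 (-0.68) and UXS1 (-0.021). Leaving out Large White replicates 1 and 3 turned PGM1 (-0.014), PRKAB2 (-0.41), PRKAG2 (0.39), TBC1D1 (-0.44), PGM2 (0.22), PRKAB1 (0.36), MEF2D (-0.40), PTPN1 (0.032), AKT1 (-0.20), ALDOC (0.036), PGAM2 (-0.16) and UXS1 (-0.14). AKT2 was at 0.47 with array weights, and leaving out 1 array gave -0.43 to 0.13 for AKT2 and -0.40 to 0.045 for PRKAG2. The causes were not tested. The covariate is built in part from muscle genes, and with 3 arrays per breed an exact permutation test cannot go below 0.1.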

Other observations

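UDP-glucose, the product of UGP2, also feeds the galactose pathway and the making of sugar chains. Of 10 genes in that list 6 were tested, 2 with a positive and 4 with a negative difference, the median was -0.51, and limma called 0. The median was -0.11 without Large White replicate 1, -0.062 without replicates 1 and 3, and 0.083 with the adipocyte minus sarcomere covariate. GALK1, the galactokinase that starts galactose use, read 7.72, 7.36 and 7.14 on Large White replicates 1, 2 and 3 and 6.64, 6.15 and 6.64 on the Northeastern Indigenous arrays. Its difference of -0.93 ± 0.30 (SE; limma adjusted p = 0.229) had no overlap between breeds. B4GALT1, a galactosyltransferase of the Golgi, differed by -0.80 ± 0.29 (SE; limma adjusted p = 0.243), also without overlap. GALT, the uridylyltransferase that exchanges galactose 1-phosphate with UDP-glucose, had the opposite sign, at 0.99 ± 0.49 (SE). It read 7.64, 5.83 and 6.13 in Large White and 7.53 ± 0.14 (SD, n = 3) in Northeastern Indigenous boars, so Large White replicate 1 was at the level of the other breed. UXS1, which makes UDP-xylose, differed by 0.85 ± 0.46 and overlapped between breeds.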
